A study of Mus musculus with 4 samples.

Results

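The SoxD genes Sox5, Sox6 and Sox13 and the SoxE genes Sox8, Sox9 and Sox10 were followed through the single-cell transcriptomes of 4 mouse neural stem cell (NSC) lines. These 6 genes were chosen by name, and all 6 were among the 27612 genes listed in at least 1 table of the series. All lines came from epiblast stem cells (EpiSCs) of strain 129/Sv, and all were grown with EGF and FGF2, each at 10 ng/ml. XN4 and XN1 additionally received 10 µM XAV939, which stabilises Axin and so lowers Wnt signalling, KN1 received no Wnt modulator, and CN4 received 2 µM CHIR99021, a GSK3 inhibitor that raises it. Per the study's methods, the XAV939 of XN1 came from another supplier than that of XN4 and formed crystals in the medium, so the dose in solution may have differed between these lines, and the EpiSCs of all lines had themselves been kept in 2 µM XAV939. Each line was 1 culture and gave 1 BD Rhapsody whole-transcriptome library, so a line, its medium and its library cannot be told apart, and no test between lines was possible. The intervals given here are 95% limits and cover counting error only. Reads were not collapsed to molecules, so reads of 1 molecule are not independent and the Poisson intervals of levels are too narrow.

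Sox proteins bind DNA through an HMG box. SoxE proteins carry a transactivation domain: Sox9 is needed for neural stem cell maintenance and for the onset of gliogenesis, Sox10 for oligodendrocyte differentiation and for neural crest, and Sox8 overlaps with both. SoxD proteins have no transactivation domain of their own and act as dimers beside other factors, including SoxE proteins in cartilage. In the spinal cord Sox5 and Sox6 are known to hold back oligodendrocyte specification and differentiation.

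In the GRCm38 genome, Sox5 (ENSMUSG00000041540.16) lies on the minus strand of chromosome 6 at chr6:143828425-144781977 and spans 954 kb. Sox6 (ENSMUSG00000051910.13) spans 568 kb on the minus strand at chr7:115470872-116038796. The other 4 genes are short: Sox13 spans 42.1 kb (ENSMUSG00000070643.11, minus strand, chr1:133382303-133424377) and Sox10 10.3 kb (ENSMUSG00000033006.10, minus strand, chr15:79154908-79165240). Sox9 spans 5.54 kb (ENSMUSG00000000567.5, plus strand, chr11:112782224-112787760) and Sox8 4.80 kb (ENSMUSG00000024176.10, minus strand, chr17:25565892-25570686). Intronic reads were counted in XN4, XN1 and CN4, and this setting could not be checked for KN1. The antisense transcript Sox6os, annotated inside Sox6, had 82 reads in CN4 against 22374 for Sox6, 46 against 14582 in XN1 and 20 against 443 in XN4.

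The libraries differed in ways that touch these genes. The reads-per-cell tables held 8741 cells for XN4, 14452 for XN1 and 18157 for CN4, and KN1 was represented by the 3975 cells of its normalized table. The median KN1 cell had 833 genes, against 2257 to 2824 in the normalized tables of the other lines, although its median of 5862 reads was within their range of 4637 to 7796. A captured gene therefore carried 7.39 reads on average in KN1, 3.90 in XN4, 2.40 in CN4 and 2.14 in XN1. In these single-cell data XN4 went against its label of neural stem cell line: Sox2, which marks neural stem cells, was captured in 0.561% of its cells, against 13.9% in KN1, 63.5% in XN1 and 85.9% in CN4. The study's own microarrays differ, as it reports Sox2 in its NSC lines at levels comparable to the embryonic CNS. It also lists neurons, oligodendrocytes and astrocytes obtained from XN4. Of 11 mesenchyme genes, 8 were captured in at least 10% of XN4 cells, against 3 in XN1, 0 in KN1 and 2 in CN4. Their summed level was 7266 reads per 1000000 reads (RPM) in XN4 and 18.5 to 254 RPM in the other lines, and the part of this difference between lines in the XN4 values given here was not tested. Between 37 and 320 cell indices were shared by any pair of libraries, at most 2.36% of the smaller one.

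Sox9 was the most widely captured of the 6 genes in XN4, XN1 and CN4. A Sox9 read was found in 75.2% of XN1 cells (74.5 to 75.9), 68.7% of CN4 cells (68.0 to 69.3), 46.2% of XN4 cells (45.2 to 47.3) and 20.1% of KN1 cells (18.8 to 21.3). The counting intervals did not overlap between any pair of lines. The share of all genes for which this held is not given here, so it is not a trait of Sox9. Thinned to 3200 reads per cell, the shares were 68.6% in XN1, 52.9% in CN4, 29.7% in XN4 and 17.1% in KN1, in the same order. The level of Sox9, as RPM in the normalized tables, was 526 in XN1, 355 in CN4, 171 in KN1 and 169 in XN4. XN4 and KN1 thus had levels with overlapping intervals (165 to 173 and 166 to 176) while their shares of capturing cells differed, and the 797 KN1 cells with Sox9 carried 5.91 reads each against 3.96 in XN4.

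Sox8, which acts beside Sox10 in the oligodendrocyte lineage, had its highest share in CN4. Its reads were found in 54.2% of CN4 cells (53.5 to 54.9) and 31.1% of XN1 cells (30.4 to 31.9), while KN1 had 8.13% (7.29 to 9.02) and XN4 7.55% (7.01 to 8.12). XN4 and KN1 could not be separated by these intervals, and the other lines stood clear of them, again without a share over all genes. At 3200 reads the values were 37.1% in CN4, 23.1% in XN1, 6.45% in KN1 and 3.16% in XN4. The level was 176 RPM in CN4, 95.7 in XN1, 53.5 in KN1 and 15.9 in XN4, an 11.1-fold range.

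Sox10 was rare in every line. It was captured in 374 CN4 cells, or 2.06% (1.86 to 2.28), in 61 XN1 cells, or 0.422% (0.323 to 0.542), and in 2 XN4 cells, or 0.0229% (0.00277 to 0.0826). The gene was not listed in the KN1 table, in which the least captured listed gene was found in 7 of 3975 cells. The share in CN4 was 4.88 times that in XN1 (3.71 to 6.51) and 90.0 times that in XN4 (24.7 to 746). Thinned to 3200 reads per cell, it was found in 49 of 3158 CN4 cells, or 1.55% (1.15 to 2.05), in 16 of 3129 XN1 cells, or 0.511% (0.293 to 0.829), and in 0 of 3384 XN4 cells (up to 0.109%). The median XN4 cell had 12615 reads and 2665 genes, against 9173 reads and 3095 genes in CN4. Whether the reads of the 2 XN4 cells are background of the assay was not tested.

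Among the SoxD genes, Sox6 separated XN4 from the other lines. Its reads were found in 51.7% of cells in XN1 (50.9 to 52.5), 49.6% in CN4 (48.9 to 50.4) and 47.3% in KN1 (45.7 to 48.9) but in 2.44% in XN4 (2.12 to 2.78). The order of XN1, CN4 and KN1 changed on thinning, to 41.8%, 34.6% and 44.7%, with XN4 at 1.27%. The level was 760 RPM in KN1, 203 in XN1, 182 in CN4 and 4.38 in XN4. Sox6 was thus 46.4-fold lower in XN4 than in XN1 and 41.4-fold lower than in CN4. When the number of cells with the gene was scaled by all captured gene-cell pairs of a table instead of reads, an alternative chosen after seeing the data, these values were 26.7-fold and 20.8-fold.

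Sox5 was captured in 39.7% of CN4 cells (39.0 to 40.5), 28.8% of those of KN1 (27.4 to 30.3), 21.6% of those of XN1 (20.9 to 22.2) and 17.7% of those of XN4 (16.9 to 18.5). XN4 was again lowest, but by a smaller margin than for Sox6. Thinning moved KN1 above CN4, at 27.0% against 23.7%, with XN1 at 14.6% and XN4 at 11.2%. The level was 389 RPM in KN1, 107 in CN4, 61.2 in XN1 and 46.8 in XN4. Taken as the mean over cells of each cell's RPM, it was 390, 116, 66.8 and 69.0, so the order of XN1 and XN4 turned.

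Sox13, a SoxD gene known from lymphocytes and the developing nervous system, varied least in level. It was captured in 15.0% of CN4 cells, 13.3% of XN4 cells, 8.32% of XN1 cells and 3.02% of KN1 cells. Its level was 33.6 RPM in CN4 (31.3 to 36.1), 28.3 in KN1 (26.4 to 30.4), 27.6 in XN4 (26.0 to 29.2) and 20.7 in XN1 (18.7 to 22.8). XN4 and KN1 were not separated, and the whole range was 1.63-fold.

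**Figure D1:**
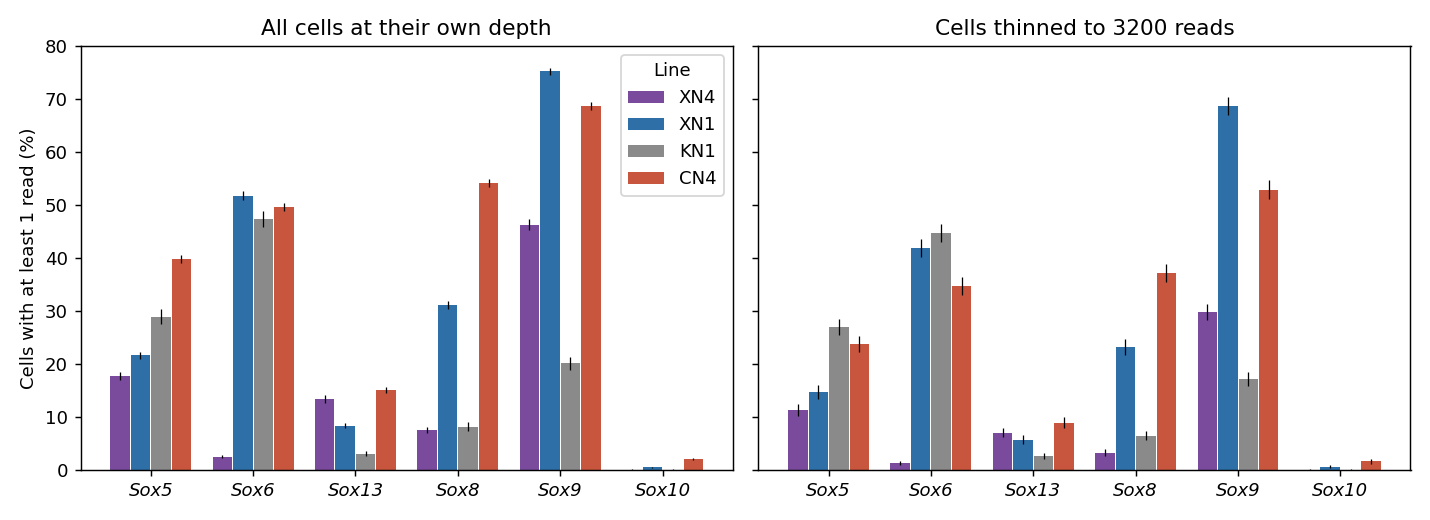
Share of cells with at least 1 read of each gene (y axis, percent) in the 4 lines (bar colours), for all cells at their own depth on the left and for cells thinned to 3200 reads on the right, with bars of error showing exact binomial 95% intervals. Sox6 was at 2.44% in XN4 and near 50% in the other lines, and Sox10 reached 2.06% at most.

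**Figure D2:**
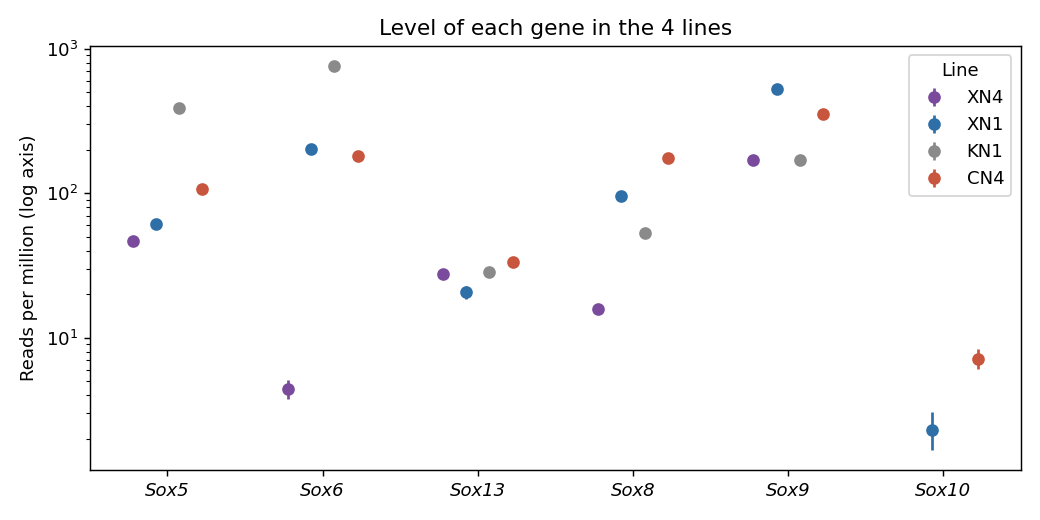
RPM (y axis, log scale) of each gene in the normalized table of each line, with exact Poisson 95% intervals, many of them smaller than the point. Sox5 and Sox6 were highest in KN1, at 389 and 760, and Sox10 is drawn only for XN1 and CN4, where the table lists it.

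Per kb of merged exon, Sox9 stood at 40.8 RPM in XN4, 127 in XN1, 85.8 in CN4 and 41.4 in KN1, where Sox6 stood at 51.2. Intronic reads were counted, at least in XN4, XN1 and CN4, while intron length is not part of this scale. It therefore gives no ranking of Sox5 and Sox6 against the short genes. Of all reads of the 6 genes, Sox9 took 64.1% in XN4, 57.8% in XN1 and 41.3% in CN4 but 12.2% in KN1, where Sox6 took 54.2% and Sox5 27.7%.

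Levels at least 2-fold apart were then counted for each pair of lines. Sox10 was captured in at least 1% of cells in CN4 alone, so it entered a comparison only through the line where it was high, and it is left out of the counts. The other 5 genes passed in every line and were read against all genes captured in at least 1% of cells of both lines, with the share for genes that passed in either line second. Between XN4 and CN4, 4 of 5 genes were lower in XN4 and none was higher, against 26.8% and 36.6% of all genes that differed either way. Sox8 was 11.1-fold, Sox5 2.29-fold and Sox9 2.10-fold lower in XN4, and Sox6 as given above. Taken as the mean over cells, Sox5 was at 69.0 RPM in XN4 and 116 in CN4, less than 2-fold apart, so its call was lost on that measure. Between XN4 and XN1, 3 of 5 genes (Sox6, Sox8 and Sox9) were lower in XN4, against 25.7% and 35.2% of all genes. Sox8 was 6.03-fold and Sox9 3.12-fold lower there.

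Between XN1 and CN4, 0 of 5 genes differed by at least 2-fold, against 13.8% and 19.2% of all genes. The ratios ran from 1.83-fold higher in CN4 (Sox8) to 1.48-fold higher in XN1 (Sox9). Sox10, left out of the count, had 2.28 RPM in XN1 and 7.15 in CN4.

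KN1 was then compared with the other lines. Between XN4 and KN1, 3 of 5 genes were higher in KN1, against 38.9% and 48.1% of all genes, and these were Sox5 (8.30-fold), Sox6 (173-fold) and Sox8 (3.37-fold). Between XN1 and KN1, 3 of 5 genes differed, against 43.3% and 49.4% of all genes, with Sox5 (6.35-fold) and Sox6 (3.74-fold) higher in KN1 and Sox9 (3.08-fold) higher in XN1. Between KN1 and CN4, 4 of 5 genes differed, against 39.5% and 44.2% of all genes. Sox5 (3.63-fold) and Sox6 (4.18-fold) were higher in KN1, while Sox8 (3.28-fold) and Sox9 (2.07-fold) were lower. The Sox9 differences fell below 2-fold on the scale of captured gene-cell pairs. There Sox9 was 1.96-fold higher in XN1 than in XN4, 1.43-fold higher in CN4 than in XN4, 1.52-fold higher in XN1 than in KN1 and 1.11-fold higher in CN4 than in KN1. On that scale Sox5 and Sox6 were 4.68-fold and 59.6-fold higher in KN1 than in XN4, 3.44-fold and 2.23-fold higher than in XN1, and 2.28-fold and 2.87-fold higher than in CN4.

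Genes with long spans were as a class higher in KN1. Relative to CN4, the 230 genes spanning at least 500 kb had a median log2 ratio of 2.31 in favour of KN1, and the 2715 genes under 10 kb a median of -0.61. Sox5 (log2 ratio 1.86) and Sox6 (2.07) stood at percentiles 35.2 and 40.9 of the long genes, so neither exceeded the typical long gene. Of the pair, Sox6, the shorter gene, had the larger ratio against CN4 and XN4, and Sox5 against XN1. Relative to XN1 they stood at percentiles 54.3 and 31.3. Relative to XN4, Sox5 was at percentile 68.7 and Sox6, nearly absent from XN4, at percentile 92.2. The part of gene span in these differences was not tested, and the percentiles describe these libraries only. Whether intronic reads were handled alike in KN1 could not be checked.

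**Figure D3:**
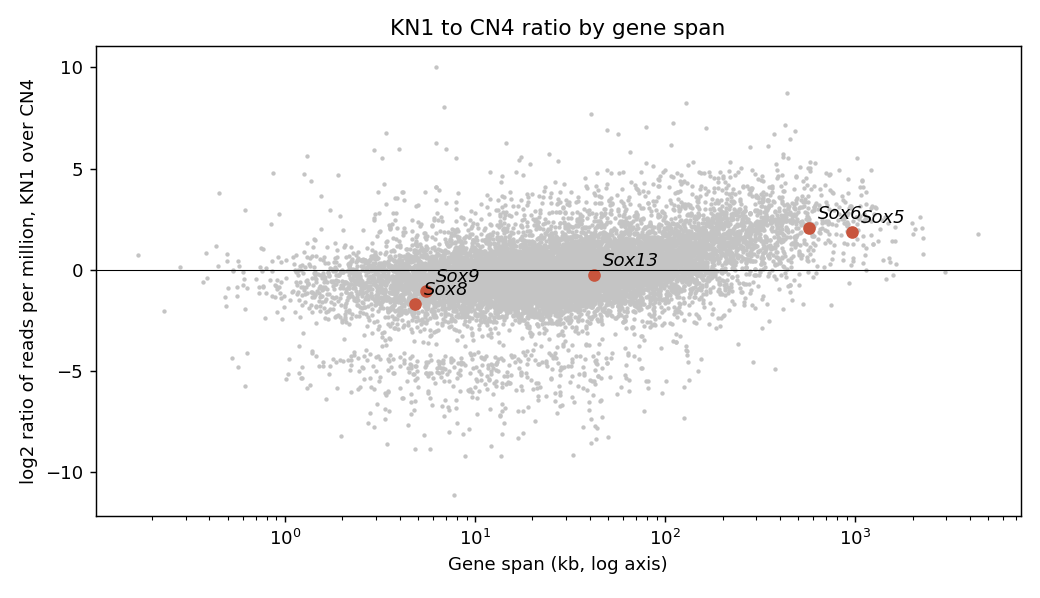
Log2 ratio of RPM in KN1 over CN4 (y axis) against gene span in kb (x axis, log scale) for all genes captured in at least 1% of cells of either line (grey), with 5 of the 6 genes in red. Sox5 and Sox6 lie within the cloud of long genes at 1.86 and 2.07, Sox8 and Sox9 lie below 0, and Sox10, unlisted in KN1, is not drawn. Other unlisted genes are drawn at 3 reads.

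The next question was whether the transcripts were captured in the same cells. At least 1 of the 6 was captured in 95.2% of CN4 cells, 92.0% of XN1 cells, 70.4% of KN1 cells and 62.4% of XN4 cells. Both a SoxD and a SoxE transcript were found in 62.9% of CN4 cells, 53.4% of XN1 cells, 16.6% of KN1 cells and 17.3% of XN4 cells. On thinning, the order of CN4 and XN1 and that of KN1 and XN4 turned, with 38.9%, 40.8%, 12.8% and 5.73%. Over all cells, the numbers with both were compared with independent capture within 20 strata of cells of like total reads. They were 1.01 times the expected in CN4 (0.987 to 1.02), 1.01 in XN1 (0.986 to 1.03), 0.974 in KN1 (0.901 to 1.05) and 1.03 in XN4 (0.975 to 1.08). Every interval held 1. These are Poisson limits of the observed number, which are too wide for widely captured transcripts, so they do not show independent capture.

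For single pairs of genes, few intervals lay off 1 outside CN4, but by the same wide limits. A pair whose interval held 1 was not shown to be captured independently. The intervals of all 10 pairs with an expected number of at least 10 held 1 in XN4, as did all 10 in KN1, and in XN1 13 of 14 did. The exception in XN1 was Sox5 with Sox6, at 1.06 (1.01 to 1.11), and its interval held 1 with at least 2 reads required (1.09) and in the cells of the normalized table (1.06). In CN4 the interval lay above 1 for 5 of 15 pairs and below 1 for 3. CN4 also had the most cells, so its intervals were the narrowest. As a background, each Sox gene was paired with every gene captured as widely as the 5 Sox genes other than Sox10. In CN4 the interval lay off 1 for 12.6% of the pairs of those 5 genes (7.51% above and 5.06% below), against 3 above and 1 below among their own 10 pairs. For Sox10 it lay off 1 for 23.1% (10.2% above and 12.9% below), against 2 above and 2 below among its 5 pairs. The background was 5.34% in XN1, 5.06% in XN4 and 2.89% in KN1 for the 5 genes and 2.73% in XN1 for Sox10.

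The largest departures in CN4 involved Sox10. Sox6 was captured in 289 of the 374 Sox10 cells, or 77.3%, against 49.0% of cells without Sox10, which was 1.61 times the expected number (1.43 to 1.81). Sox8 was captured in 71.9% of the Sox10 cells and 53.8% of the others, 1.40 times the expected (1.24 to 1.58). In the fewer cells of the normalized table the interval for Sox8 held 1 (1.36). Both partners were thus more frequent in Sox10 cells at like depth when all cells were used.

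Sox9 and Sox13 went the other way. Sox9 was captured in 48.9% of the CN4 cells with Sox10 and in 69.1% of those without, 0.777 times the expected number (0.668 to 0.898). Sox13 was captured in 8.29% and 15.2%, 0.648 times the expected (0.440 to 0.919). For Sox5 and Sox10 the ratio was 1.02 (0.854 to 1.20). In XN1, with 61 Sox10 cells, the ratio was 1.16 for Sox6 (0.816 to 1.61), 1.37 for Sox8 (0.895 to 2.01) and 0.837 for Sox9 (0.592 to 1.15), and each of these intervals held 1.

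The remaining departures in CN4 were small. Sox6 was captured with Sox5 (1.06, 1.03 to 1.10), Sox13 (1.06, 1.01 to 1.12) and Sox8 (1.06, 1.03 to 1.09) slightly more often than expected. In the fewer cells of the normalized table only 2 CN4 pairs lay above 1. Sox6 with Sox10 was among them, so most of these calls were lost there. Sox8 and Sox9 were captured together slightly less often (0.974, 0.951 to 0.998).

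**Figure D4:**
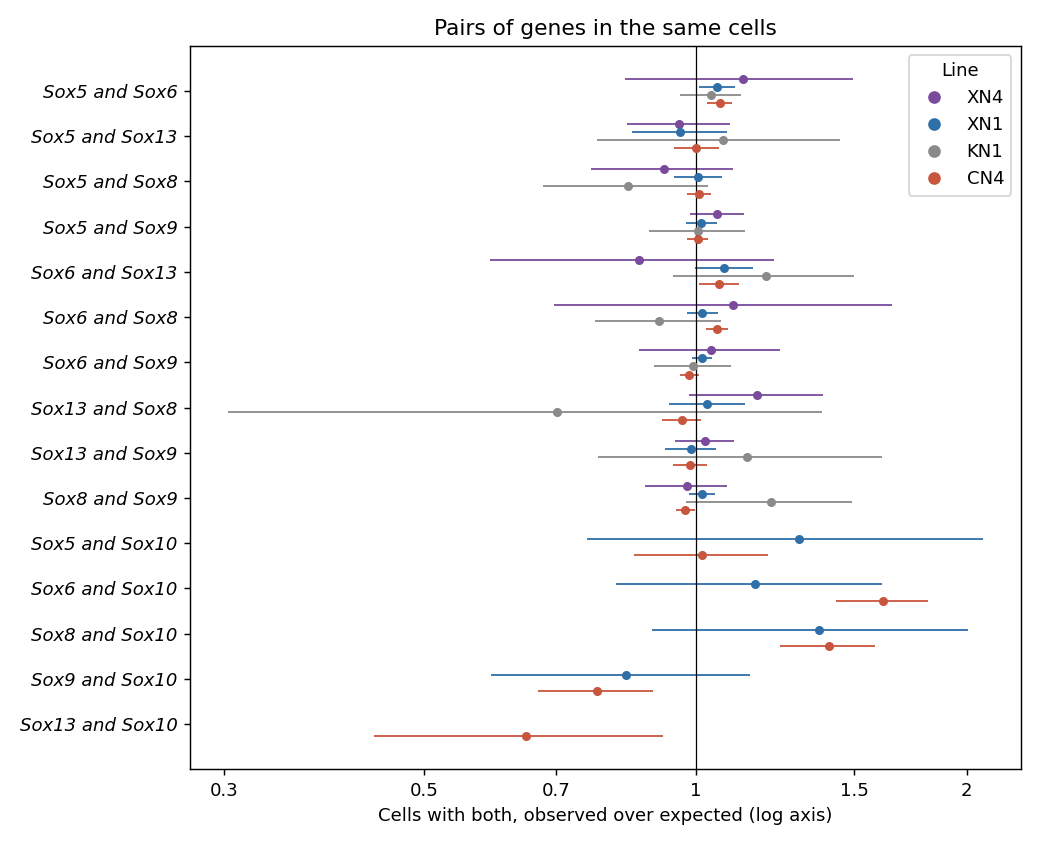
Number of cells with both genes of a pair over the number expected within strata of like total reads (x axis, log scale), for each pair with an expected number of at least 10 (rows) in each line (colours), with exact Poisson 95% limits. The Sox10 pairs of CN4 spread from 0.648 with Sox13 to 1.61 with Sox6, and most other points lie close to 1.

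Genes of the oligodendrocyte list were frequent in the CN4 cells with Sox10. Of 25 listed genes, 12 had an expected number of at least 10, with a median ratio of 1.53, and 7 of them reached 1.2. Over all 10766 genes scored, the median was 0.996 and 14.8% reached 1.2. Dll3, a Notch ligand of differentiating progenitors, was captured in 48.9% of Sox10 cells and 7.47% of others, 5.12 times the expected number (4.41 to 5.92). The lowest ratios in the list were those of Tcf7l2 (1.05) and Ptprz1 (1.05), the latter captured in all 374 cells and so at the highest ratio it could reach.

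The 20 scored astrocyte and radial glia genes had a median of 0.857 with Sox10, with 6 at or below 0.8 and 4 at or above 1.2, against 17.5% and 14.8% of all genes scored. Aldh1l1, a folate enzyme used as an astrocyte marker, was captured in 2.41% of Sox10 cells and 14.1% of others (0.203, 0.0928 to 0.385), and Gfap, an astrocyte intermediate filament, in 1.34% and 4.05% (0.341, 0.111 to 0.797). At the other end, S100b, also found in oligodendrocyte precursors, had a ratio of 1.66 (1.28 to 2.13) and Id4, an inhibitor of bHLH factors, 1.64 (1.29 to 2.05). The list therefore did not move as a whole.

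Among the other Sox genes in the Sox10 cells of CN4, the SoxB1 gene Sox3 was captured in 80.2% against 47.6% (1.77, 1.57 to 1.98), and its relative Sox1 in 13.4% against 30.4% (0.528, 0.392 to 0.696). Sox4, a SoxC gene, had a ratio of 1.08 and Sox2 0.937, both with intervals that held 1. These genes were captured in 93.7% and 85.9% of all CN4 cells, so the Poisson limits are too wide to show that neither departed. Of the 4 scored neuron genes, Dcx, a microtubule protein of young neurons, had the highest ratio (1.82, 1.19 to 2.66) and Snap25, a synaptic protein, the lowest (0.514, 0.322 to 0.778). Ets1, of the neural crest list, had a ratio of 2.00 (1.71 to 2.32), with a median of 1.12 over the 6 genes scored there. The 2 scored mesenchyme genes had a median of 0.569, and the only cartilage gene scored, Col9a3, had 0.900.

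**Figure D5:**
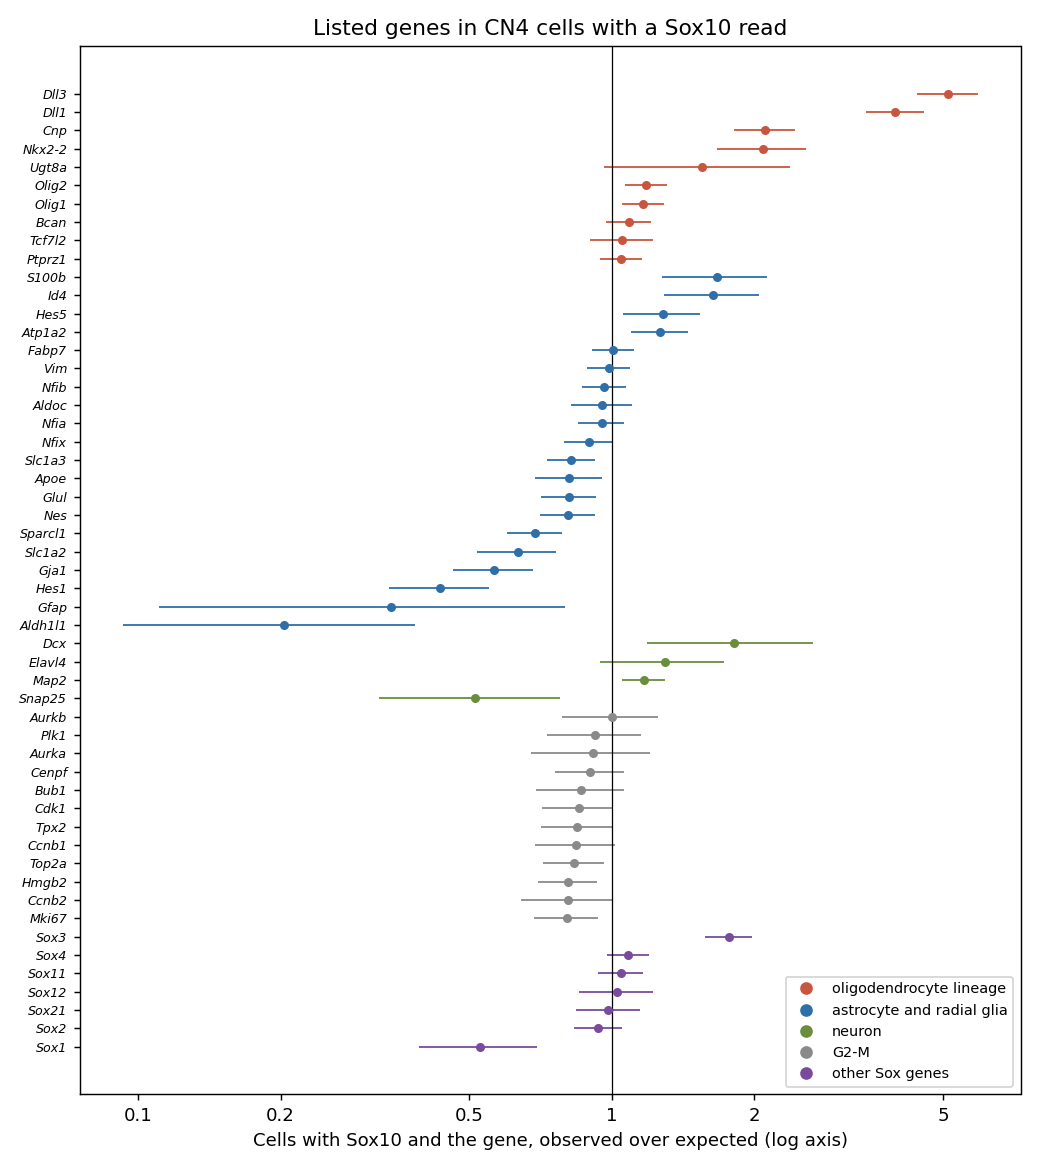
Number of CN4 cells with Sox10 and a listed gene over the number expected within strata of like total reads (x axis, log scale), by list (colours), with exact Poisson 95% limits. Genes not reported here are not drawn. Dll3 lies above 5, Aldh1l1 lies at 0.203, and all 12 G2-M genes lie at or below 1.

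The same lists were scored for the 5 more widely captured genes. Over the 76 combinations of line, Sox gene and list with at least 10 genes scored, the median ratios ran from 0.807 to 1.09, and 71 lay between 0.9 and 1.1. A ratio cannot rise far above 1 when either gene is widely captured. Of all genes scored in CN4, 0.935% reached 1.2 with Sox9, against 14.8% with Sox10. These medians are therefore not comparable with those of Sox10, and values near 1 do not show a lack of relation. With Sox9, the median ratio of the astrocyte and radial glia list was 1.02 in XN4 and CN4, 1.01 in XN1 and 1.07 in KN1, beside medians over all scored genes of 1.01, 1.00, 1.00 and 1.03 in XN4, XN1, CN4 and KN1. The cartilage list had a median of 1.03 with Sox9 in XN4 over 7 genes and 1.01 in CN4 over 10. With Sox8 in CN4 the oligodendrocyte list had a median of 1.04, and 4 of 21 genes reached 1.2, against 1.85% of all genes scored. Some SoxD values were of similar size. The list had a median of 1.07 with Sox6 in CN4, where 3 of 20 genes reached 1.2 against 2.52%. With Sox13 in XN1 it was 1.09, where 3 of 13 did against 4.996%. Others were closer to 1. With Sox5 and Sox13 in CN4 the medians were 1.00 and 1.01, and 0 of 20 and 0 of 18 genes reached 1.2, against 2.37% and 4.64%. With Sox5 and Sox6 in XN1 they were 1.01 and 1.02, with 1 of 17 and 1 of 19, against 3.36% and 1.45%. Of the 5 medians under 0.9, 3 were those of the mesenchyme list in CN4. With Sox8 its median was 0.807, and 5 of 10 genes were at or below 0.8 against 2.47% of all genes. With Sox6 the median was 0.861 and with Sox5 0.854, with 4 of 10 genes at or below 0.8 in each case, against 2.90% and 2.11% of all genes. With Sox9 (0.995) and Sox13 (0.975) the same list did not lie that low. The other 2 medians were those of the G2-M list, at 0.813 with Sox5 in XN1 and 0.895 with Sox13 in CN4.

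The genes captured most alike were named by the phi coefficient within the strata, which is 0 for independent capture, over all genes captured in at least 5% of the cells of a line. Sox8 in CN4 had the highest values, with Dll1 (0.159), a Notch ligand, and Sox3 (0.134) among its leading genes over 18157 cells. Sox6 in CN4 was most like Lhfpl3 (0.139), Dll3 (0.115) and Nova1 (0.111). Sox9 in CN4 was most like Nid1 (0.123), a basement membrane protein, Fos (0.117) and Selenop (0.114), and Sox13 most like Spry4 (0.103), Trim62 (0.0975) and Klf10 (0.0974). For Sox5 in CN4 the values were lower, led by Mxd4 (0.0624), Srgap3 (0.0604) and Nckap5 (0.0583).

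In XN4, Sox8 was most like Unc5b (0.138), Scml4 (0.110) and Meox1 (0.108), and Sox9 most like Sod3 (0.0966), Rhou (0.0951) and Cxcl12 (0.0930). Sox5 was led there by Setbp1 (0.0798), B3galt1 (0.0793) and Dpyd (0.0787) and Sox13 by B3gntl1 (0.0624), Ptdss1 (0.0544) and Abca9 (0.0517). None of these 12 genes was among the leading 3 of the same Sox gene in another line.

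In XN1, Sox9 was most like Mxd4 (0.0819), Camk2n1 (0.0765) and Apoe (0.0758), Sox8 most like Tox3 (0.0766), Lrrn1 (0.0623) and Map3k1 (0.0617), and Sox6 most like Pitpnc1 (0.0623), Tnik (0.0609) and Fmnl2 (0.0530). Sox5 was led by Chl1 (0.0677), Rora (0.0489) and Grm5 (0.0488), and Sox13 by Areg (0.0548), Klf10 (0.0517) and Rfx4 (0.0513). Klf10 was thus among the leading 3 for Sox13 in both XN1 and CN4. In KN1, Rora (0.111), which was second in XN1, led for Sox5, followed by Pcdh7 (0.105) and Nkain3 (0.0999). Sox6 in KN1 was most like Vav3 (0.0986), Klf12 (0.0975) and Npas3 (0.0973), Sox8 most like Ctnnb1 (0.0817), Utp11 (0.0759) and Pdcd5 (0.0741), and Sox9 most like Mageh1 (0.0826), Hmgcs1 (0.0757) and Tuba1b (0.0736). All these values are weak, and cells of a library share its depth and chemistry.

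Finally, cells with at least 2 of 12 G2-M genes, called dividing here, were compared with the others at like total reads. They made up 74.3% of CN4, 43.9% of KN1, 37.0% of XN4 and 36.0% of XN1 cells, shares that themselves depend on depth. Sox6 was captured less often than expected in dividing cells of XN1 (0.919, 0.884 to 0.955), KN1 (0.904, 0.844 to 0.967) and CN4 (0.951, 0.928 to 0.974), while in XN4 the ratio was 0.942 with an interval that held 1 (0.765 to 1.15). Sox5 was below 1 in XN4 (0.899, 0.828 to 0.975), XN1 (0.851, 0.800 to 0.904) and CN4 (0.962, 0.936 to 0.988), and in KN1 the ratio was 0.936 (0.860 to 1.02). The median over all scored genes was 1.02 in KN1, 1.01 in XN1, 0.998 in CN4 and 0.996 in XN4. Ratios at or below 0.8 were found for 8.12% of these genes in XN1, 4.56% in XN4, 2.43% in KN1 and 2.06% in CN4. Ratios at or above 1.2 were found for 11.3%, 5.11%, 5.36% and 0.628%. The Sox5 and Sox6 ratios lay between these limits. The share of all genes with an interval below 1 was not counted, so how usual such shifts are is not known. With at least 4 of the 12 genes required, the interval for Sox6 in KN1 held 1 (0.919, 0.834 to 1.01).

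The SoxE genes differed among themselves in this respect. Sox8 was captured slightly more often than expected in dividing XN1 cells (1.07, 1.03 to 1.12), and its interval held 1 in the other lines. Sox9 was slightly below 1 in XN1 (0.936, 0.907 to 0.967) and CN4 (0.976, 0.956 to 0.996) and held 1 in XN4 and KN1. Sox10 was captured in 1.54% of dividing CN4 cells and 3.56% of the others, 0.826 times the expected number (0.717 to 0.946). The interval for Sox13 held 1 in all 4 lines, but lay below 1 in CN4 with at least 4 of the 12 genes required (0.900, 0.856 to 0.946).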

How the data were processed

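Single cells of the 4 lines were profiled by BD Rhapsody whole-transcriptome capture. Per the file headers, the count tables of XN4, XN1 and CN4 hold reads per cell and gene from the BD Rhapsody WTA pipeline 1.12.1 (GRCm38, GENCODE vM19, intronic reads included, refined cell calling). The authors also deposited a normalized table per line, made with Seurat 4.3.0 per the submitters' processing notes, whose values are the natural log of 1 plus scaled reads. Every value, exponentiated and divided by the smallest of its cell, was whole within 0.01, and in XN4, XN1 and CN4 no value differed from the read count. For KN1, where no read count table was used, the smallest value of each cell was taken as 1 read, which could not be checked there, and the KN1 reads, thinned shares and 2-read shares rest on it. Ribosomal protein and mitochondrial genes are absent from the normalized tables.

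Shares used all cells of the count tables (normalized table for KN1), with exact Clopper-Pearson intervals. Levels and folds used the normalized tables, with 3 reads as the floor for unlisted genes. Such a gene may have been removed by a filter, since every listed gene was captured in at least 3 cells. Thinning, in the cells of the normalized tables, drew 3200 reads without replacement and left out shallower cells (776 in XN1, 579 in KN1, 543 in XN4, 290 in CN4). Expected numbers of cells were summed over 20 strata of total reads. Limits of observed over expected are Poisson limits of the observed number. They ignore that the numbers of cells with each gene were fixed, so they are too wide for widely captured genes. An interval that held 1 therefore does not show independence. No doublet caller was run, and the 5% of cells with the most reads were left out as an alternative. Named genes were the 6 genes, up to 4 genes per list and line with the highest and lowest ratios (expected at least 10), and the 3 of highest phi. Some genes that this rule names are not reported here, but they remain in the list counts and medians. The genes and lists were chosen with earlier results of these data known. Coordinates are from GENCODE M21. Python 3.11.15, numpy 2.4.6 and scipy 1.17.1 were used.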

Additional observations from a re-analysis of the deposited data

How the results depend on the processing

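With 1 library per line there is no replicate spread, and the number of Sox10 cells, 61 in XN1 and 2 in XN4, limits the Sox10 pairs outside CN4. No paired analysis was possible because each line has 1 library.

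Shares depended on what counts as capture. For Sox6, requiring at least 2 reads gave 41.7% in KN1, 28.7% in CN4, 26.1% in XN1 and 1.01% in XN4, so KN1 became highest, and thinning gave 44.7%, 34.6%, 41.8% and 1.27%. For Sox9, 2 reads gave 55.4% in XN1, 50.6% in CN4, 33.6% in XN4 and 15.9% in KN1, and thinning 68.6%, 52.9%, 29.7% and 17.1%, both in the order of the full data. Without the 5% of cells with the most reads, Sox6 was at 50.4% in XN1, 48.8% in CN4 and 45.5% in KN1, and Sox9 at 44.3% in XN4, 74.2% in XN1 and 67.5% in CN4. In the cells of the normalized tables, Sox6 was at 48.6% in CN4, and Sox9 at 45.0% in XN4 and 65.9% in CN4. Of the levels, 12 moved and 10 did not when taken as the mean over cells. Without the 5% of cells with the most reads, 2 moved and 20 did not.

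Counted with Sox10, as first planned, 5 of 6 genes were at least 2-fold apart between XN4 and CN4, 1 of 6 between XN1 and CN4 and 5 of 6 between KN1 and CN4. The shares of all genes passing in either line were 36.6%, 19.2% and 44.2%. Sox10 entered these counts only through CN4, where it was high. A 3-fold limit left 3 between XN4 and CN4, Sox10 among them, and the share of all genes at that limit is not given here. Requiring 1% of cells in both lines, chosen after seeing the data, or 5% in either, left 0 between XN1 and CN4, since Sox10 was not tested. Counting cells with the gene in place of reads (chosen after seeing the data) gave, without Sox10, 2, 3 and 3 of 5 genes for XN4 against XN1, KN1 and CN4 (21.8%, 35.1% and 22.8% of all genes passing in both lines on that scale, and 32.9%, 45.1% and 33.8% of those passing in either), 2 and 0 for XN1 against KN1 and CN4 (37.1% and 11.1%, and 44.4% and 16.6%), and 3 for KN1 against CN4 (33.7%, and 39.4%). Scaling by the median ratio and using no filter on low genes left all 6 counts within 1.5 times.

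Pairs above expectation numbered 1 in XN4 and 2 in XN1 with 5 strata, and 5, 8, 4 and 9 in XN4, XN1, KN1 and CN4 without strata, by construction, since deeper cells capture more of every gene. In XN1 the count was 0 with at least 2 reads, 2 without the deepest cells and 0 in the normalized-table cells, and in CN4 it was 2 in the latter, with fewer cells. Sox6 and Sox10 in CN4 ranged from 1.53 to 2.44 and stayed above 1 under all 7 alternatives. Sox8 and Sox10 lost the call in the normalized-table cells (1.36), and Sox9 and Sox10 stayed below 1 in all 7 (0.690 to 0.777). Of the list medians, 18 moved and 142 did not when at least 2 reads were required.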
